A study of Mus musculus with 12 samples.

Results

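The 3 arrays of diabetic mice given mcIRBP were set against the 3 arrays of normal mice left untreated, which are 6 of the 12 arrays of the series. The comparison asks which genes of the treated diabetic animals lay at the level of the untreated normal animals and which still differed. Arrays were chosen by their titles and labels, not by any measured value. Results were read across the 21020 of 29922 probes that carry a gene symbol in the platform annotation. The diabetic mcIRBP arrays came from male BALB/c mice labelled diabetic that received 2.5 nmol mcIRBP. The normal mock arrays came from female BALB/c mice labelled normal and untreated. All 6 samples are labelled as muscle, and each was labelled with the dye Cy5 on an array of its own. The other 2 groups, diabetic mock (male, untreated) and normal mcIRBP (female, treated), share the spread estimate, and diabetic mock levels are given beside some values. Diabetic mock values share the normal mock arrays with the main comparison wherever they are tested against them. The labels used here give neither the age of the mice nor how diabetes arose, and do not say whether 3 arrays stand for 3 mice. P-values therefore measure the spread between arrays, which may be technical. Disease state, sex, treatment and the authors' normalization set all differ between the groups and cannot be told apart.

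mcIRBP is a protein of bitter melon, the plant Momordica charantia, that binds the insulin receptor. The insulin receptor signals through receptor substrates, phosphatidylinositol 3-kinase and the kinase Akt, which in muscle and fat moves the glucose transporter Slc2a4 to the cell surface. In fat and liver the same pathway favours lipid synthesis, and in liver it lowers the transcription of the gluconeogenic enzymes Pck1 and G6pc. Liver cells secrete most plasma proteins, fat cells secrete adiponectin and leptin, and the epithelium of the epididymal duct secretes defensins, lipocalins and protease inhibitors onto maturing sperm.

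Levels are log2 intensities after background correction and quantile normalization of all 12 arrays together. A difference is the log2 fold change of diabetic mcIRBP over normal mock, with its standard error (SE) from limma. A gene rose or fell where the Benjamini-Hochberg adjusted p over all probes was under 0.05. The floor is the level that the many dark probes of an array share, and a probe above it exceeded its mode by 5 SD. Where no array of a group was above the floor, the fold is a bound against the floor ("at least"), and fitted differences of such genes are no bounds. A gene matched where it was above the floor on all 6 arrays, was not called, and had a 95% confidence interval of its difference within a factor of 2 either way. A gene with an array above the floor that was neither called nor matched is called unresolved.

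The labelled tissue was checked against markers first. Of 42 skeletal muscle genes, 6 were above the floor on all 3 diabetic mcIRBP arrays (Tpm1, Tpm2, Des, Tnnc1, Pvalb and Myh1), and 1 on all 3 normal mock arrays (Acta1). The myosins Myh2 and Myh7, titin (Ttn) and nebulin (Neb) were below the floor on all 6 (another Ttn probe was above it on at least 1), and the summed intensity of the list was 3390 to 3886 on diabetic mcIRBP arrays and 3598 to 4167 on normal mock arrays. These values go against the label, so the samples are called by their group names below. Between 4876 and 8605 probes were above the floor on a diabetic mcIRBP array, against 2488 to 4101 on a normal mock array, where the raw floor was also brighter (a mode of 38 to 39 against 57 to 92). After normalization the floor was at 6.19 to 6.64 on diabetic mcIRBP arrays and 6.79 to 7.31 on normal mock arrays. The same level could therefore count as above it in diabetic mcIRBP and below it in normal mock. Of the Y-linked genes, the translation factor Eif2s3y had 7.37, 7.51 and 7.09 on the male diabetic mcIRBP arrays, against 5.85, 5.79 and 5.84 on the female normal mock arrays (at least 1.16-fold higher); the call was lost under cyclic loess normalization (adjusted p = 0.112). Usp9y, Uty, Jarid1d and Zfy1 were below the floor on all 6.

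Across probes, diabetic mcIRBP and normal mock were the least alike of all pairs of groups, with a Pearson r of 0.631 to 0.710 (median 0.672) between their arrays. Within diabetic mcIRBP it was 0.931 to 0.981, and within normal mock 0.879 to 0.916. These are correlations across probes of single arrays, and probes are not replicates. Of the 21020 probes with a symbol, 2193 rose (10.4%) and 1544 fell (7.35%). A fold could be given for 792 of those that rose and 951 of those that fell, and it was over 2 for 353 and 542 of them. The other called probes were at the floor in at least 1 group by too small a margin for a bound. Of the probes with a symbol, 443 matched (2.11%), 4955 were unresolved and 11885 were not called and below the floor on all 6 arrays. A further 345 that rose and 550 that fell were also below it on all 6, and they have no fold. Among the 1315 above the floor on all 6, 107 rose, 283 fell, 443 matched and 482 were unresolved. With 1 probe per gene, 1948 of 16637 genes rose (11.7%), 1309 fell (7.87%) and 428 matched (2.57%), and the median difference was -0.01. The groups of 3 arrays did not overlap for 39.6% of genes. Over all 29922 probes 2769 rose (9.25%) and 1981 fell (6.62%), which is 15.9% called in either direction, and over probes with a symbol 17.8% were called and 38.7% had groups that did not overlap. Of 1-probe genes 19.6% were called, beside 10.2% between diabetic mock and normal mock and 9.47% between diabetic mcIRBP and diabetic mock. Of the 4750 called probes 58.3% rose, and this share was 73.8% when arrays were scaled to their medians, 76.7% when scaled to their 75th percentile, 45.0% with array weights and 7.68% with the deposited normalized intensities, which were made in separate sets.

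**Figure D1:**
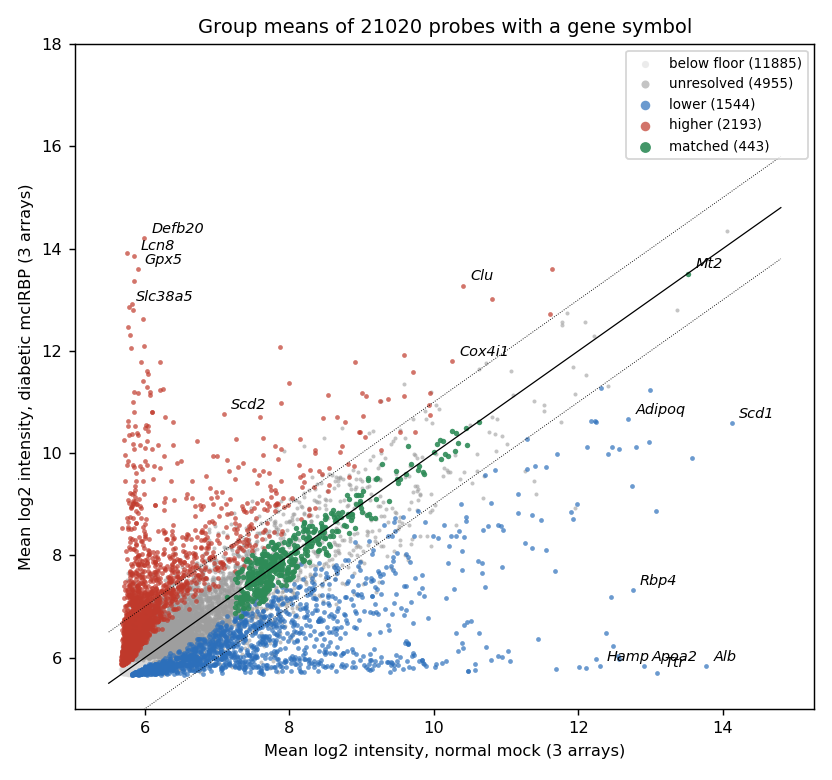
Mean log2 intensity on the 3 diabetic mcIRBP arrays (vertical axis) against that on the 3 normal mock arrays (horizontal axis) for the 21020 probes with a gene symbol, coloured by outcome. The solid line marks equal levels and the dotted lines a 2-fold difference; the largest differences lie along the floors of the 2 groups, with Alb and Ttr at the right and Defb20 and Lcn8 at the top, while Mt2 lies on the line under this normalization.

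The largest falls included genes for plasma proteins that the liver secretes. Of the 15 largest, 11 were below the floor on every diabetic mcIRBP array, and 4 were above it on 2 or 3 arrays. Alb (serum albumin; probe mMC005336, chromosome 5, 90460870 to 90476602, build GRCm38.p6) had 5.86, 5.81 and 5.82 in diabetic mcIRBP, against 13.75, 13.84 and 13.71 in normal mock. It was at least 171-fold lower (adjusted p = 3.38e-10). Ttr (transthyretin, a carrier of thyroid hormone and retinol-binding protein) had 5.73, 5.71 and 5.68 in diabetic mcIRBP, against 12.54, 13.54 and 13.20 in normal mock, at least 107-fold lower (adjusted p = 1.98e-09). Apoa2, a protein of high density lipoprotein, had 5.86, 5.81 and 5.82 in diabetic mcIRBP, against 12.84, 13.04 and 12.84 in normal mock, at least 94.2-fold lower (adjusted p = 7.22e-12). Hamp, which encodes the iron hormone hepcidin, had 5.86, 5.84 and 5.80 in diabetic mcIRBP, against 12.34, 12.41 and 12.13 in normal mock, at least 61.6-fold lower (adjusted p = 7.22e-12). In none of the 4 was a diabetic mcIRBP array above the floor. The ranking took only genes whose groups of 3 arrays do not overlap, so that separation is no separate result.

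Of the 15 largest falls, the others were Serpina1e (an alpha-1-antitrypsin, at least 74.0-fold lower), Apoa1 (at least 73.1-fold), Serpinc1 (antithrombin, at least 53.9-fold), Apoc3 (at least 59.2-fold), Fabp1 (a fatty acid binding protein inside liver cells, at least 50.7-fold), Mup3 (a major urinary protein, at least 40.7-fold) and Mug1 (murinoglobulin, at least 26.1-fold). Serpina3k, Ahsg, Rbp4 and Trf remained above the floor on at least 2 of the 3 diabetic mcIRBP arrays, with differences of -6.25, -5.90, -5.43 and -5.26. Rbp4 (retinol-binding protein) had 7.51, 7.06 and 7.38 in diabetic mcIRBP, against 12.81, 12.81 and 12.63 in normal mock, a 43.2-fold fall. Its mean in diabetic mock was 11.12. Alb averaged 6.51 in diabetic mock and Serpina3k 9.27, while Ttr (5.69), Apoa2 (5.85) and Hamp (5.86) were below the floor there on all 3 arrays. Serpina1 and Mup genes have near-identical copies, so each such value may belong to several genes of the family.

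Promoter windows are shown for genes at both ends of the ranking, so that their sequence can be set beside these levels. Each is 300 bases of RefSeq sequence (GRCm38.p6, from the reference strain) around an annotated start, 5′ to 3′ on the gene's strand, and positions are counted from that start. RefSeq windows were at hand for 11 of the 15 largest falls (13 windows) and 12 of the 15 largest rises (12 windows). Capitals mark 3 short motifs searched on both strands, which do not overlap each other in the windows shown. GTTAAT is a half-site of the liver factor HNF1. TATAAA is the core promoter motif that binds the general factor TBP. AGAACA is a half-site of steroid receptors. They are matches of letters and not measured sites. The 4 largest falls whose windows hold GTTAAT were Alb at -32 (chr5:90460620-90460919, plus strand), Fabp1 at -107 (chr6:71199629-71199928, plus strand), Serpina1e at -78 (chr12:103956848-103957147, minus strand) and Mug1 at -73 (chr6:121838291-121838590, plus strand, on the opposite strand of the gene). Defb20 (chr2:152476813-152477112, plus strand) and Lcn5 (chr2:25657702-25658001, plus strand, TATAAA at -28) are 2 of the largest rises, described below.
Alb: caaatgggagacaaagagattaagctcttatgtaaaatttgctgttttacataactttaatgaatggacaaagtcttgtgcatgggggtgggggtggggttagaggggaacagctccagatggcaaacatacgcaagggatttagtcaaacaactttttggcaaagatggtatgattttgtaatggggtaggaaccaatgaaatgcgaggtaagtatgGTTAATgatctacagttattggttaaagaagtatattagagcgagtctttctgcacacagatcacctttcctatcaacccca
Fabp1: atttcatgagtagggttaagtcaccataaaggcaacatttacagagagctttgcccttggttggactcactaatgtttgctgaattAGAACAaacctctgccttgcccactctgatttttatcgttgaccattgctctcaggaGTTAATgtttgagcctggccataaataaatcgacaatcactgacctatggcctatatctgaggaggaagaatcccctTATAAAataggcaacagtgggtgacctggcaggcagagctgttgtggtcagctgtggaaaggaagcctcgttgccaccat
Serpina1e: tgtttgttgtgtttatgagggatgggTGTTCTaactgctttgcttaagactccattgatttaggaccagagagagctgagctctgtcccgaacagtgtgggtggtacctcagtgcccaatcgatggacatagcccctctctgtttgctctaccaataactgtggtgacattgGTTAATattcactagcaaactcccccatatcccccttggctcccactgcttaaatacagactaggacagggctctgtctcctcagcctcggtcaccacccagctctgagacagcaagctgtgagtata
Mug1: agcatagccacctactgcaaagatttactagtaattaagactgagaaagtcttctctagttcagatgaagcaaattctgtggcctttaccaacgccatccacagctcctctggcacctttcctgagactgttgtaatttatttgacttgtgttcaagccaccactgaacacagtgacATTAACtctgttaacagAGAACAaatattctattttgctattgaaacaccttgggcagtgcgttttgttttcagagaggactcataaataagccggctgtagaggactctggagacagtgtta
Defb20: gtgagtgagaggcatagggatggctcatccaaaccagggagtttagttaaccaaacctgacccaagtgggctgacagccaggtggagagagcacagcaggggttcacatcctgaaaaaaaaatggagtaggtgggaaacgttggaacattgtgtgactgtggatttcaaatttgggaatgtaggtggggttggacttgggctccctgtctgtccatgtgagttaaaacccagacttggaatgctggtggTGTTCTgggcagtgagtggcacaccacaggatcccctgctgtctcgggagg
Lcn5: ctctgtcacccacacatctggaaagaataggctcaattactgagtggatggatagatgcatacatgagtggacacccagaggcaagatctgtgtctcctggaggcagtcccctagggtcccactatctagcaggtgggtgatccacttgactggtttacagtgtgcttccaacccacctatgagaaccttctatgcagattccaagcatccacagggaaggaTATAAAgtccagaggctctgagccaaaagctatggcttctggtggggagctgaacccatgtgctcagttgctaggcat
GTTAAT was in 4 of the 13 windows of the largest falls and 1 of the 12 of the largest rises (Ces7, at -89), beside 7.10% of all 32851 windows. TATAAA was in 3 of 13 and 1 of 12, beside 13.6% of all, and AGAACA in 6 of 13 and 4 of 12, beside 19.0% of all. No motif was found in the windows of Lcn8 and Gpx5.

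**Figure D2:**
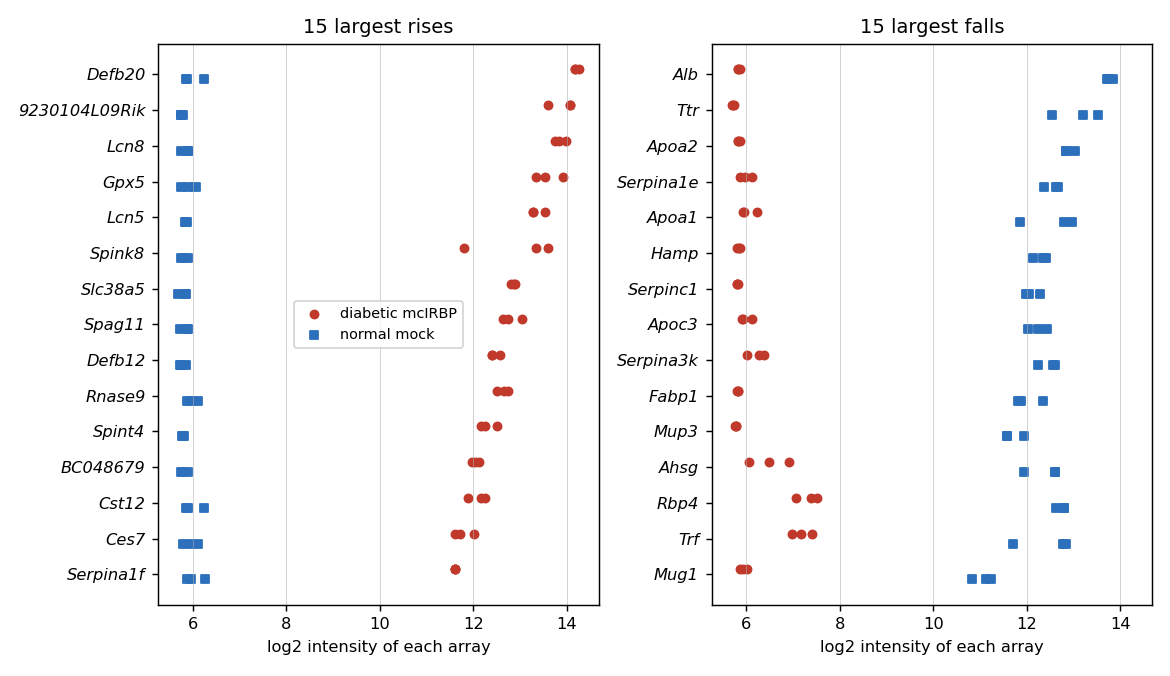
Log2 intensity on each of the 3 diabetic mcIRBP arrays (circles) and 3 normal mock arrays (squares) for the 15 genes with the largest rise (left panel) and the 15 with the largest fall (right panel). Groups that do not overlap were a condition of the ranking. The rises have every normal mock array near 6. Most falls have every diabetic mcIRBP array near 6, while Rbp4 and Trf keep levels of about 7.

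The liver gene lists fell nearly whole. Of 16 measured carriers and hormones of the liver list, 14 fell, none rose and the median difference was -4.79, beside -0.01 for all genes. The 2 not called were Igfbp1, which binds insulin-like growth factors, at -0.67 and Hrg, a histidine-rich plasma protein, at 0.46. The summed intensity of the list was 1194 to 1361 on diabetic mcIRBP arrays, 4334 to 4642 on diabetic mock arrays and 52279 to 63696 on normal mock arrays. Of 21 clotting factors and serpins 19 fell (median -2.84), among them the fibrinogen chain Fgb (at least 13.5-fold), plasminogen (Plg, at least 12.8-fold) and prothrombin (F2, at least 11.2-fold). In bulk RNA, fewer cells of a type and less RNA per cell cannot be told apart. The part of liver RNA in these differences was not tested. Scaling to the median or to the 75th percentile left 14 of the 16 carriers and 18 of the 21 clotting genes called lower.

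Apolipoproteins and acute phase proteins followed the same direction with exceptions. Of 16 apolipoproteins and their partners 12 fell and 2 rose (median -2.31). Apoe, which also fat cells and macrophages make, had 9.98, 10.05 and 10.33 in diabetic mcIRBP, against 12.74, 12.90 and 12.74 in normal mock, a 6.37-fold fall (adjusted p = 3.01e-06) that was not called under median scaling (adjusted p = 0.119). Clu, the secreted chaperone clusterin, differed in the other direction, with 13.15, 12.96 and 13.71 in diabetic mcIRBP, against 10.49, 10.44 and 10.27 in normal mock (difference 2.87, SE 0.62, adjusted p = 0.0116). Its mean was 8.98 in diabetic mock. Apod, a lipocalin that carries small lipids, was at least 3.61-fold higher.

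Of 24 acute phase and complement genes 14 fell, 1 rose and 3 matched (median -1.16). The lipocalin Lcn2, which binds bacterial siderophores, had 11.84, 11.87 and 11.64 in diabetic mcIRBP, against 9.10, 8.95 and 8.68 in normal mock (difference 2.87, SE 0.41, adjusted p = 0.000966), and averaged 11.10 in diabetic mock. Complement C3 fell 6.82-fold (adjusted p = 0.0177), and the call was lost without diabetic mcIRBP replicate 2 (adjusted p = 0.0621) and under median scaling (adjusted p = 0.102). The serum amyloid Saa3, the complement component C8b and the C1q chain C1qa matched. Haptoglobin (Hp) had 11.24, 11.35 and 11.20 in diabetic mcIRBP, against 12.01, 12.54 and 12.39 in normal mock (difference -1.05), and its sign turned under scaling to the median or the 75th percentile.

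Enzymes of liver metabolism were lower as well. Of 25 cytochrome P450 genes 21 fell and 1 rose (median -2.24). Cyp4a10, a fatty acid hydroxylase, fell 13.5-fold (a second probe was at -1.07 and unresolved) and the bile acid enzyme Cyp8b1 at least 7.99-fold, while Cyp1b1, found in many tissues outside the liver, had 8.34, 8.51 and 8.63 in diabetic mcIRBP, against 7.43, 7.35 and 7.45 in normal mock (difference 1.09, adjusted p = 0.0153). Leaving out diabetic mcIRBP replicate 2 or 3 ended the Cyp1b1 call (adjusted p of 0.0501 and 0.0565). Of 24 genes of amino acid breakdown and the urea cycle 17 fell (median -1.95), among them Mat1a, which makes S-adenosylmethionine in liver (at least 24.2-fold), and the urea cycle enzymes Cps1 (at least 10.9-fold), Arg1 (at least 9.04-fold) and Otc (at least 8.30-fold). Got1, the cytosolic aspartate aminotransferase, rose with a difference of 1.54. Glutamine synthetase (Glul) had 12.39, 12.65 and 12.48 in diabetic mcIRBP, against 12.63, 10.43 and 12.23 in normal mock, where 1 array stood apart, and was unresolved.

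Of 9 gluconeogenic genes, 3 fell, none rose and 1 matched (median -0.28), and those that fell did so under both scalings. Pck1 (phosphoenolpyruvate carboxykinase) had 6.82, 6.69 and 6.41 in diabetic mcIRBP, against 10.43, 10.35 and 10.48 in normal mock, a 13.8-fold fall (difference -3.78, SE 0.28, adjusted p = 8.69e-06), and a second probe also fell (-2.70). Its mean in diabetic mock was 10.33, beside 10.42 in normal mock. Fbp1 (fructose-1,6-bisphosphatase) was at least 15.8-fold lower and G6pc (glucose-6-phosphatase) at least 5.77-fold lower. Slc37a4, the transporter that feeds glucose-6-phosphatase, matched (difference -0.28, 95% interval -0.73 to 0.17). Its match was lost under median scaling (0.46, interval -0.23 to 1.16) and with a smaller offset in the background correction (interval -1.003 to 0.30). Pck1, Fbp1 and G6pc are liver enzymes and Pck1 is also known from fat cells. The part of liver and fat RNA in their falls was not tested.

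Of 18 adipocyte genes 13 fell in diabetic mcIRBP, none rose and none matched (median -1.76). In diabetic mcIRBP 10 of the 18 were above the floor on all 3 arrays and 7 on none, against 13 on all 3 arrays in normal mock, where each of the 18 was above it on at least 1. Adipoq (adiponectin) had 10.62, 10.47 and 10.92 in diabetic mcIRBP, against 12.99, 12.36 and 12.70 in normal mock, a 4.05-fold fall (difference -2.02, SE 0.23, adjusted p = 0.000227). Its mean in diabetic mock was 13.59. Lep (leptin) had 5.89, 5.86 and 6.02 in diabetic mcIRBP, against 8.60, 8.29 and 8.29 in normal mock, at least 4.12-fold lower (adjusted p = 0.000213), and averaged 6.46 in diabetic mock. The lipid droplet protein gene Cidec fell 7.87-fold and lipoprotein lipase (Lpl) 5.63-fold, and Pparg, the transcription factor of fat cells, was at least 3.15-fold lower. The summed intensity of the list was 9303 to 9929 on diabetic mcIRBP arrays, 67195 to 69479 on diabetic mock arrays and 32654 to 40938 on normal mock arrays.

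These falls depended on how the arrays were scaled. Scaled to the array medians, 1 of the 18 adipocyte genes was called lower (median -0.68), and scaled to the 75th percentile 7 were (median -0.93). Under median scaling Adipoq was at -0.78 (adjusted p = 0.317) and Lep at -1.36 (adjusted p = 0.124). Leaving out any array of either group left 11 to 13 called.

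Genes of lipid synthesis and oxidation were mostly lower. Of 19 lipogenic genes 10 fell, 1 rose and 1 matched (median -1.04). Scd1, the main stearoyl-CoA desaturase of fat and liver, had 10.42, 10.20 and 11.12 in diabetic mcIRBP, against 14.26, 13.92 and 14.17 in normal mock, an 11.6-fold fall (difference -3.54, SE 0.23, adjusted p = 3.42e-06). Its neighbour and relative Scd2 differed in the other direction, with 10.57, 10.65 and 11.05 in diabetic mcIRBP, against 7.46, 6.23 and 7.58 in normal mock (difference 3.67, SE 0.34, adjusted p = 5.15e-05). Fatty acid synthase (Fasn) fell 9.27-fold (adjusted p = 0.0138), the lipogenic regulator Thrsp 10.2-fold and malic enzyme (Me1) 6.37-fold, while Fads2, a fatty acid desaturase, matched (0.16, with a second probe called higher at 0.68) and Acly, which makes cytosolic acetyl-CoA, was unresolved at 0.58.

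Of 30 genes that take up or oxidise fatty acids 18 fell, none rose and 1 matched (median -1.32). The dehydrogenases Acadm and Acadvl fell 6.07-fold and 5.95-fold, Acaa2 (the last step of the spiral) 5.37-fold, and Angptl4, an inhibitor of lipoprotein lipase, 5.98-fold. The other 2 Angptl4 probes were below the floor. Slc27a2, a fatty acid transporter and acyl-CoA synthetase of liver, was at least 10.2-fold lower. Under median scaling 2 of the 30 genes and 2 of the 19 lipogenic genes were called lower, under 75th percentile scaling 10 and 6. Leaving out an array left 13 to 17 of the oxidation genes called. Liver and adipocyte lists moved the same way, and their part was not tested.

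In the cholesterol pathway 9 of 18 genes fell, 1 rose (Mvd, below the floor on all 6 arrays) and 1 matched (median -0.55). Idi1 (isopentenyl diphosphate isomerase) fell 4.64-fold, while the next enzyme, Fdps (farnesyl diphosphate synthase), had 9.28, 9.25 and 9.68 in diabetic mcIRBP, against 9.38, 9.76 and 9.38 in normal mock (difference -0.10, 95% interval -0.59 to 0.39). Fdps averaged 7.21 in diabetic mock, where it differed from normal mock (adjusted p = 0.000117). Under median scaling none of the 18 was called lower.

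**Figure D3:**
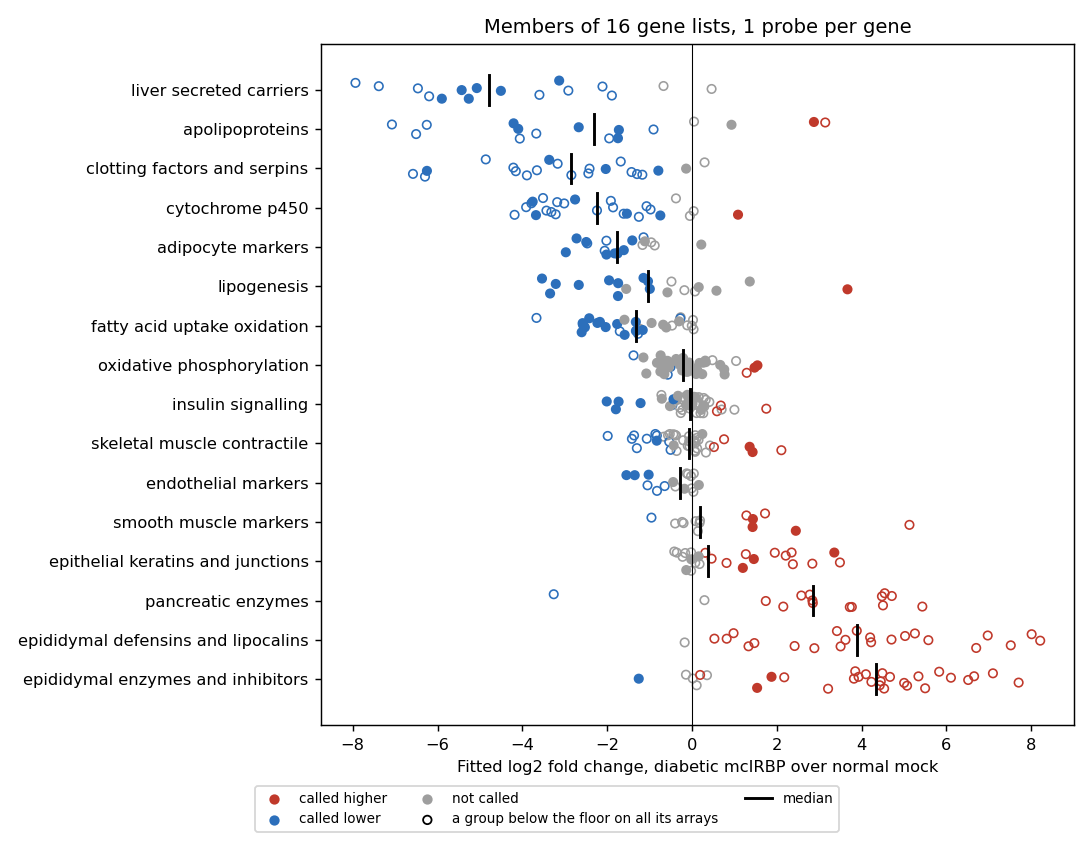
Fitted log2 fold change of diabetic mcIRBP over normal mock (horizontal axis) for each member of 16 gene lists, 1 probe per gene, with the list's median as a bar. Open circles had a group below the floor on all its arrays, where the fitted value is no bound; the 4 liver lists at the top lie to the left with medians of -4.79 to -2.24, the epididymal lists to the right with 3.89 and 4.33, and oxidative phosphorylation and insulin signalling near 0.

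The largest rises included genes whose products the epididymis secretes into its duct. All 15 of the largest were below the floor on every normal mock array. Defb20 (a beta-defensin; probe mMC002960, chromosome 2, 152477063 to 152479934) had 14.26, 14.17 and 14.17 in diabetic mcIRBP, against 5.85, 6.23 and 5.88 in normal mock. It was at least 136-fold higher (adjusted p = 1.14e-11). Lcn8, an epididymal lipocalin, had 13.84, 13.75 and 13.98 in diabetic mcIRBP, against 5.90, 5.89 and 5.75 in normal mock, at least 107-fold higher (adjusted p = 5.69e-10). Gpx5, a glutathione peroxidase of epididymal fluid, had 13.54, 13.92 and 13.35 in diabetic mcIRBP, against 5.75, 5.89 and 6.06 in normal mock, at least 89.8-fold higher (adjusted p = 3.38e-10). Groups of 3 arrays that do not overlap were a condition of this ranking, so their separation is no separate result.

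The others of the 15 largest rises were 9230104L09Rik (now Cstdc2, a cystatin family gene, at least 111-fold), Lcn5 (at least 76.4-fold), Spink8 (at least 55.8-fold), the glutamine transporter Slc38a5 (at least 53.7-fold), Spag11 (at least 51.6-fold), Rnase9 (at least 45.8-fold), Defb12 (at least 40.8-fold), the protease inhibitor Spint4 (at least 36.5-fold), Cst12 (at least 31.7-fold), BC048679 (at least 30.6-fold), the carboxylesterase Ces7 (at least 25.4-fold) and Serpina1f (at least 22.6-fold). Spink8 had 13.35, 13.60 and 11.80 in diabetic mcIRBP, where the third array was lower, against 5.75, 5.89 and 5.81 in normal mock. All 15 were above the floor on the 3 diabetic mock arrays too, at lower levels, with a mean of 8.30 for Defb20, 8.59 for Lcn8 and 9.28 for Gpx5. Several belong to families of similar sequence, and the probes' specificity was not analysed here.

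By list, 22 of 23 epididymal defensins and lipocalins rose and Defb1 was below the floor on all 6 arrays (median 3.89). Of 30 epididymal enzymes and inhibitors 25 rose, 1 fell and the median difference was 4.33. The one that fell was Aqp9, a water and glycerol channel also known from liver and fat (-1.26, with a second probe below the floor). The sperm-surface and maturation genes Crisp1 (at least 6.23-fold), Adam7 (at least 21.6-fold), Cd52 (at least 16.4-fold, with a second probe unresolved at 0.55) and Spinlw1 (at least 17.6-fold) rose together with them. The summed intensities of both lists were 72867 to 77310 and 57305 to 77624 on diabetic mcIRBP arrays, 2693 to 2875 and 4568 to 5213 on diabetic mock arrays, and 1363 to 1584 and 3115 to 3488 on normal mock arrays. Under each alternative run, scalings and left-out arrays included, at least 20 of the 23 and 23 of the 30 rose. The epididymis is a male organ, and sex differed between the 2 groups compared. The diabetic mock mice, whose sums were far below those of diabetic mcIRBP, were also labelled male. The part of sex or of epididymal RNA in these differences was not tested.

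Some genes of lining epithelium and smooth muscle were also higher. Of 24 keratins and junction genes 13 rose, none fell and 3 matched (median 0.39). The claudin Cldn3 had 9.77, 9.65 and 9.99 in diabetic mcIRBP, against 7.35, 5.80 and 6.20 in normal mock (difference 3.36, SE 0.31, adjusted p = 4.00e-05). Cldn7 was at least 5.10-fold higher, the basal keratin Krt14 at least 3.64-fold and E-cadherin (Cdh1) at least 2.17-fold, and all 3 were below the floor on every normal mock array. Desmoglein Dsg2, Perp and Tjp1 matched, though a second Dsg2 probe was called higher (0.32).

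Of 14 smooth muscle genes 6 rose and 1 fell. Actg2, the enteric smooth muscle actin, had 11.13, 10.93 and 11.52 in diabetic mcIRBP, against 6.61, 5.79 and 5.81 in normal mock, at least 17.0-fold higher (adjusted p = 9.15e-08), and averaged 6.60 in diabetic mock. Acta2 (vascular smooth muscle actin) was 5.46-fold higher (1 of its other 3 probes was below the floor) and the light chain kinase Mylk 2.71-fold. The tropomyosins Tpm1 and Tpm2 and desmin (Des) are on the skeletal list and also belong to smooth muscle. They were among the 5 of 42 skeletal muscle genes that rose, a share near the 11.7% of all genes. The Des call was lost without diabetic mcIRBP replicate 2 or 3 or normal mock replicate 3 (adjusted p of 0.0964 to 0.113).

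Sarcomere genes were dim, and those called were mostly lower. Of the 42 skeletal muscle genes 10 fell (median of the list -0.07), beside 7.87% of all genes, and 6 of the 10 had a fold. Skeletal actin (Acta1) had 5.86, 5.89 and 5.91 in diabetic mcIRBP, against 8.26, 7.49 and 7.88 in normal mock, at least 2.88-fold lower (adjusted p = 0.000737). Muscle creatine kinase (Ckm) was at least 1.86-fold lower and myoglobin (Mb) at least 1.65-fold lower, each above the floor on 2 of 3 normal mock arrays. Under median scaling 8 of the list rose and 2 fell.

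Digestive enzymes of the exocrine pancreas were mostly above the floor in diabetic mcIRBP and, with 1 exception, below it on every normal mock array. Of 15 genes 13 rose, 1 fell and 1 was unresolved (median 2.85). Ctrb1 (chymotrypsinogen B) had 11.57, 11.27 and 11.37 in diabetic mcIRBP, against 6.0, 5.86 and 6.06 in normal mock, at least 19.6-fold higher (adjusted p = 8.75e-09). Ela2a (elastase, at least 13-fold), Prss2 (trypsinogen, at least 10.7-fold), Pnlip (pancreatic lipase, at least 9.77-fold) and Clps (colipase, at least 8.22-fold) were likewise higher. The mean of Ctrb1 in diabetic mock was 7.98. A second Ela2a probe was below the floor on all 6 arrays. The amylase gene Amy1, expressed in salivary gland and liver, had 6.10, 6.15 and 5.77 in diabetic mcIRBP, against 9.46, 9.03 and 9.31 in normal mock, at least 7.55-fold lower. The summed intensity of the list was 12248 to 14545 on diabetic mcIRBP arrays, 1947 to 2125 on diabetic mock arrays and 1582 to 1593 on normal mock arrays, and the part of pancreatic RNA in the comparison was not tested.

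**Figure D4:**
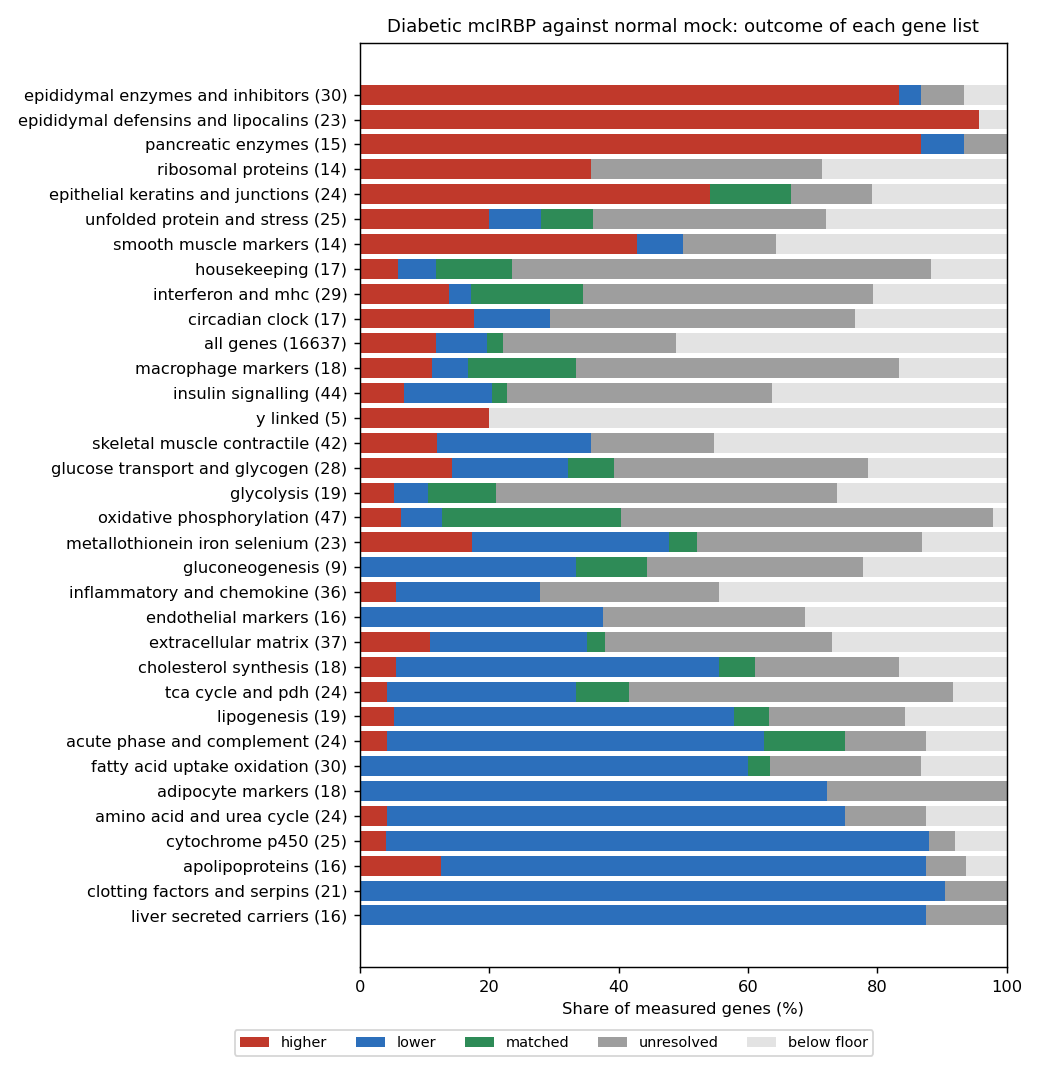
Share of the measured genes of each of 33 lists, and of all 16637 genes, that rose, fell, matched, were unresolved or were below the floor on all 6 arrays, with the number measured in brackets and lists ordered by median difference. The epididymal and pancreatic lists are mostly red, the liver lists mostly blue, and oxidative phosphorylation has 13 of its 47 genes matched.

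The genes that matched were spread over many processes. The brightest matched gene was Mt2, a metallothionein that binds zinc (probe mMC002127, chromosome 8, 94172618 to 94173567), with 13.71, 13.29 and 13.54 in diabetic mcIRBP, against 13.20, 13.71 and 13.65 in normal mock. Its difference was -0.01 with a 95% interval of -0.38 to 0.36. In diabetic mock it averaged 14.45, above normal mock (adjusted p = 0.00795) and above diabetic mcIRBP (adjusted p = 0.0062). Saa3, a serum amyloid that fat cells and macrophages also make, had 10.90, 10.96 and 9.94 in diabetic mcIRBP, against 9.91, 11.15 and 10.81 in normal mock (difference -0.03, interval -0.76 to 0.71). It averaged 12.50 in diabetic mock, above normal mock (adjusted p = 0.00727) and above diabetic mcIRBP (adjusted p = 0.00562). These matches held under cyclic loess and not under the scalings. Under median scaling the difference was 1.28 for Mt2, 1.18 for Saa3 and 0.93 for Fdps, under 75th percentile scaling 1.03, 0.93 and 0.68 (the Fdps adjusted p was then 0.0487), and none of the 3 matched under either. With the deposited normalized intensities Mt2 was called higher (0.96, adjusted p = 0.000374). The Saa3 match was also lost with those intensities, with array weights, with the 6 arrays fitted alone, and without normal mock replicate 1 or 2 or diabetic mcIRBP replicate 1 or 2.

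The other 13 of the 15 brightest matches had means between 9.89 and 10.48 in diabetic mcIRBP and between 10.01 and 10.46 in normal mock. They were C8b, the respiratory chain genes Ndufa2, Uqcrh and Cox6b1, the malate dehydrogenase of mitochondria (Mdh2), the glycolytic enzyme Tpi1, the disulfide isomerase P4hb, the co-chaperone Bag1, Adh5, Atmin, Eif5a, the proteasome subunit Psmb6 and Rps27l. Psmb6 had 9.90, 9.88 and 10.25 in diabetic mcIRBP, against 10.39, 9.81 and 9.82 in normal mock (difference 0.01, interval -0.34 to 0.35). C8b came closest to the limit, with an interval of -0.93 to 1.0. Second probes disagreed for Cox6b1 (-0.33, unresolved), for Eif5a (-0.55 and 0.16, both unresolved) and for Tpi1 (below the floor). The groups overlapped in 13 of the 15, and in Rps27l and Adh5 every diabetic mcIRBP array was lower by a small margin (-0.30 and -0.26). Over the 443 matched probes with a symbol the median size of the difference was 0.19 and the largest 0.54. Of all 502 matched probes, with or without a symbol, a match held within a factor of 1.5 for 134. Median scaling gave 148 matched probes and 75th percentile scaling 531, but these were largely other probes. Of the 502, 24 still matched under median scaling and 223 under 75th percentile scaling, where their median difference was 0.72 and 0.47. None of the 15 brightest matches held under either scaling, with differences of 0.89 to 1.33 and 0.64 to 1.08. Of 27 matched genes named by rule, none held under median scaling and 2 under 75th percentile scaling, and 16 did with the deposited normalized intensities. Leaving out 1 array left 380 to 401 of the 502 matched.

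**Figure D5:**
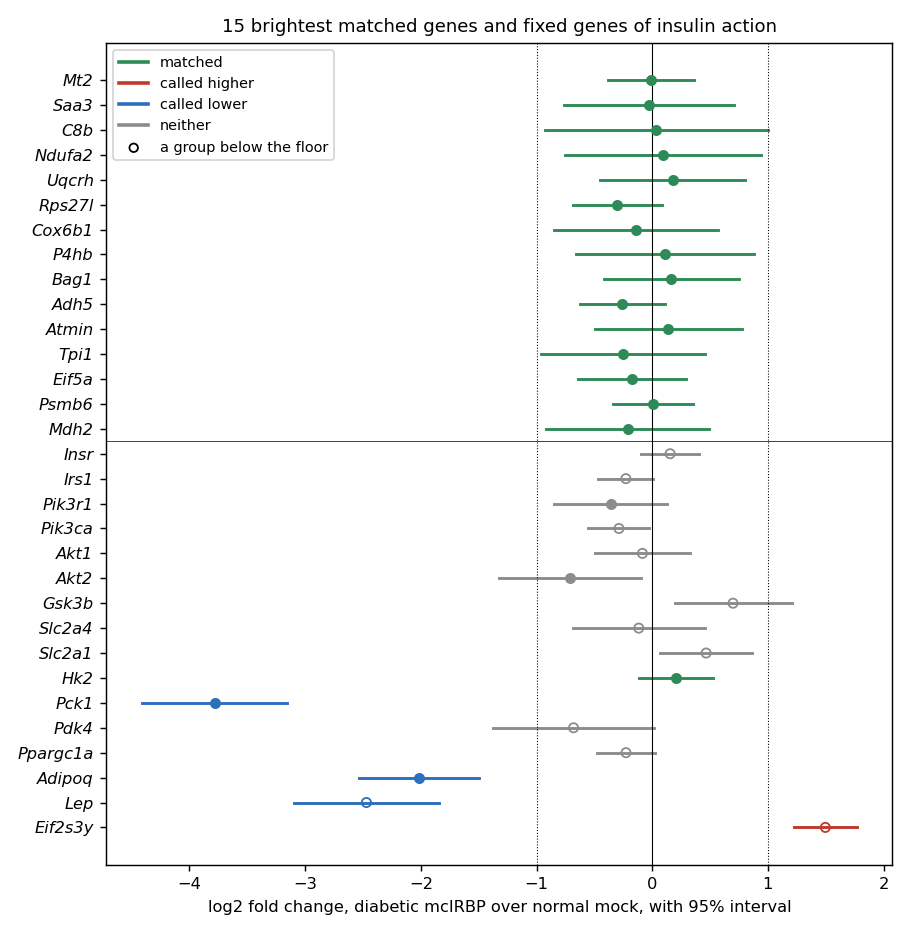
Log2 fold change of diabetic mcIRBP over normal mock with its 95% interval for the 15 brightest matched genes (above the line) and the fixed genes of insulin action with Eif2s3y (below it). Dotted lines mark a 2-fold difference; the matched intervals lie between them, Pck1, Adipoq and Lep lie left of them, and open circles had a group below the floor.

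Several of the matches belong to the respiratory chain. Of 47 genes of oxidative phosphorylation 13 matched, 3 rose, 3 fell and 27 were unresolved (median -0.21). Of the 47, 37 were above the floor on all 3 diabetic mcIRBP arrays and 34 on all 3 normal mock arrays. Over all genes 2.57% matched, but a match needs all 6 arrays above the floor. Among the 1315 probes with a symbol that met this condition, 443 matched. The complex I genes Ndufa2, Ndufa5, Ndufb5, Ndufb7, Ndufc1, Ndufs4, Ndufs7 and Ndufs8 were among the matches. A second probe was called lower for Ndufa5 (-0.63) and was below the floor for Ndufc1. Cox4i1, a subunit of cytochrome oxidase, had 11.75, 11.44 and 12.19 in diabetic mcIRBP, against 9.73, 10.29 and 10.73 in normal mock (difference 1.54, SE 0.35, adjusted p = 0.0153). Cox5a rose as well (1.47), as did Atp5j (at least 1.16-fold), and Cox8b, the form of muscle and brown fat, was at least 1.92-fold lower. The Cox4i1 call was lost without diabetic mcIRBP replicate 3 (adjusted p = 0.0602). The median of the list turned to 0.57 under median scaling and 0.32 under 75th percentile scaling.

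Of 24 genes of the citric acid cycle 7 fell, 1 rose and 2 matched (median -0.68), the matches being Mdh2 and Idh2. Leaving out an array left 2 to 6 called lower, and neither scaling called any lower (median 0.11 under median scaling). In glycolysis, 2 of 19 genes matched (Tpi1 and Hk2), 1 rose (Pklr, the pyruvate kinase of liver and red cells, too dim for a fold) and 1 fell (Pfkfb1, below the floor). Lactate dehydrogenase (Ldha) had 9.04, 8.98 and 7.74 in diabetic mcIRBP, against 10.26, 10.53 and 10.12 in normal mock, and was unresolved at -1.72 (SE 0.72).

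Genes of the insulin pathway were mostly too dim to place. Of 44 measured, 16 were below the floor on all 6 arrays, 18 were unresolved, 3 rose, 6 fell and 1 matched (median -0.04). Over all genes 11.7% rose, 7.87% fell and 2.57% matched. The receptor gene Insr had 5.78, 6.13 and 5.91 in diabetic mcIRBP, against 5.85, 5.82 and 5.68 in normal mock, all below the floor. Irs1, the first receptor substrate, and the kinase Akt1 were below it as well, and Irs2, Foxo1 and Gys1 had no probe. The regulatory subunit Pik3r1 had 6.81, 6.47 and 6.75 in diabetic mcIRBP, against 7.24, 6.75 and 7.11 in normal mock (difference -0.36, interval -0.85 to 0.13). Akt2, the Akt form of insulin-responsive tissues, had 7.0, 7.0 and 6.85 in diabetic mcIRBP, against 7.40, 7.96 and 7.63 in normal mock. Its groups did not overlap, and it was not called (difference -0.71, interval -1.33 to -0.09, adjusted p = 0.111), and the other 2 Akt2 probes were below the floor.

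Glucose transporter Slc2a4 was unresolved, with 6.32, 6.30 and 6.22 in diabetic mcIRBP, against 6.68, 5.95 and 6.55 in normal mock. It was above the floor on 2 diabetic mcIRBP arrays and on no normal mock array, where the floor was higher. Hexokinase Hk2, which traps glucose in muscle and fat, matched, with 8.37, 8.31 and 8.69 in diabetic mcIRBP, against 8.29, 8.19 and 8.28 in normal mock (difference 0.20, interval -0.12 to 0.53). The kinase Map2k1 of the Ras branch also matched (-0.11), as did Rac1 and Rab10, which act in transporter traffic. None of these matches held under median scaling. Those of Rac1 (interval -0.71 to 1.17) and Rab10 (-1.008 to 0.56) were also lost with a smaller offset in the background correction. Gsk3b, a kinase that Akt inhibits, was at 0.70 and was not called (adjusted p = 0.0651).

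Among the pathway genes that fell, Igfbp4 (a binding protein of insulin-like growth factors) had 7.95, 8.0 and 8.62 in diabetic mcIRBP, against 10.01, 10.47 and 10.13 in normal mock, a 4.03-fold fall (adjusted p = 9.89e-05). Eif4ebp1, which restrains translation until mTOR phosphorylates it, fell 3.47-fold (adjusted p = 0.0117), though a second probe was below the floor. Igf1 had 6.82, 6.76 and 6.85 in diabetic mcIRBP, against 8.42, 7.71 and 9.50 in normal mock (difference -1.73, adjusted p = 0.0262). Socs3, an inhibitor of cytokine and insulin signalling, fell 2.32-fold (adjusted p = 0.0474). The Igf1 call was lost when any diabetic mcIRBP array or normal mock replicate 3 was left out (adjusted p of 0.0626 to 0.0753). The Socs3 call was lost without any diabetic mcIRBP array and without normal mock replicate 1 or 3 (adjusted p of 0.103 to 0.124). Foxo3, a transcription factor that Akt keeps out of the nucleus, had 7.37, 7.94 and 8.35 in diabetic mcIRBP, against 6.0, 6.36 and 6.06 in normal mock, at least 1.71-fold higher (adjusted p = 0.000447). Tsc1, part of the brake on mTOR, was at least 1.16-fold higher, and second probes of Foxo3 and Tsc1 were below the floor. Near the floor, the Tsc1 partner Tsc2 and mTOR itself (Frap1) fell, at -0.44 and -0.46. Under median scaling 5 of the 44 rose and none fell. Of 28 genes of glucose transport and glycogen 4 rose, 5 fell and 2 matched, beside 11.7%, 7.87% and 2.57% of all genes. Gys2, the glycogen synthase of liver, was at least 2.39-fold lower and Pgm2, a phosphoglucomutase, fell 2.72-fold, a call that neither scaling kept and whose second probe was below the floor.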

How the data were processed

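RNA labelled as muscle was measured on 12 one-colour Cy5 arrays, 3 for each of 4 groups. The authors deposited, per sample, a raw spot intensity and a normalized intensity for 29922 probes, and limma is named without a version in the submitters' processing notes. Medians of the deposited normalized intensity differed between sets (40 to 41 on diabetic and 62.9 to 63.2 on normal arrays), so the raw intensity was used, corrected with normexp (offset 50), quantile normalized over all 12 arrays and put on a log2 scale.

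A means model of the 4 groups was fitted with limma 3.58.1 in R 4.3.3 (statmod 1.5.0), with 8 residual degrees of freedom and Benjamini-Hochberg adjustment over all probes. Each array's floor lay 5 SD above the mode of log2 raw intensity, with the SD taken from the values below that mode. Gene symbols and coordinates came from the platform annotation and RefSeq (GRCm38.p6), which held 16633 of 16675 symbols; 8902 probes had no symbol. A gene was represented by its brightest probe over all arrays, and other probes that disagreed are given beside many of the genes named. Genes named are the 15 largest rises, the 15 largest falls, the 15 brightest matches, up to 5 brightest members of each list and a fixed set of insulin genes; others were chosen from the lists after their values were seen. The members and lists were chosen with earlier results of these data known.

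On simulated data for this comparison over 29922 probes, 38% of changes of log2 size 1 and 83% of size 2 were called, with 4 false calls. The changes, 100 of each size, were placed only in the upper range of probes ranked by normal mock mean. That range reaches below the floor, as 2488 to 4101 probes were above it on a normal mock array. Independent noise was added after normalization. Recovery was not split by level, and recovery among the dimmer remaining probes and errors from normalization were not measured. The number of arrays limits the precision. Alternatives tried were other background corrections, scalings and fits, the deposited normalized values, a filter on dim probes, a replicate block and leaving out each array. Replicate numbers are not stated to pair the arrays. Deviations of same-numbered arrays correlated at -0.06 to 0.01 over 3 pairs, and those of differently numbered arrays at -0.05 to 0.10. So few pairs cannot settle whether the numbers pair the arrays.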

Additional observations from a re-analysis of the deposited data

How the results depend on the processing

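Over all probes 2769 rose, 1981 fell and 502 matched. Median scaling gave 827 falls and 148 matches, 75th percentile scaling 1516 rises and 461 falls, cyclic loess 1679 rises and 1198 falls, and array weights 1449 rises. A filter keeping 11215 probes, which tests fewer probes, gave 1299 falls. The deposited normalized values, made in separate sets, gave 22524 falls. A match margin of 1.5-fold left 134 matches by its own construction. The median of all probes moved to -0.22 under 75th percentile scaling and -0.33 with the deposited values. Over the 11215 probes kept by the filter, a different set, the median was 0.11. Leaving out 1 array gave 1944 to 2737 rises, 1186 to 2682 falls and 415 to 523 matches; the falls numbered 1186 without diabetic mcIRBP replicate 2 and 1260 without replicate 3. The sign turned for Serping1 (0.23), Hp (0.32), Ccl9 (0.17) and Sparc (0.32) under median scaling, for Hp (0.070) and Sparc (0.072) under 75th percentile scaling, and for Jarid1d (-0.35) and Insr (-0.24) with the deposited values. The cause of these shifts was not tested. Of 45 named genes that rose, 35 were called under every alternative run, and of 62 that fell 28 were, with 34 lost under a scaling. The replicate block, whose numbers are not stated to pair the samples, gave 2298 rises and 1635 falls. Dim probes limit the comparison: 18788 of 29922 were below the floor on all 6 arrays and not called.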

Other observations

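Of 36 chemokine and adhesion genes 8 fell in diabetic mcIRBP, 2 rose, 10 were unresolved and 16 were below the floor on all 6 arrays (median -0.28, beside -0.01 for all genes). Ccl2, which attracts monocytes, had 6.72, 6.57 and 6.57 in diabetic mcIRBP, against 8.53, 8.06 and 8.29 in normal mock (adjusted p = 0.000235). Cxcl5, which attracts neutrophils, fell 4.29-fold, while Cxcl9, an interferon-gamma target, had 8.04, 7.93 and 7.95 in diabetic mcIRBP, against 6.61, 7.24 and 7.02 in normal mock (adjusted p = 0.000995). Under median scaling 1 of the list rose and 1 fell. Of 18 macrophage genes 2 rose, 1 fell, 3 matched, 9 were unresolved and 3 were below the floor on all 6 arrays. Fitted differences ran from -1.15 to 1.06. The matches were Fcgr3, Fcer1g and Cd14, with differences of -0.33, -0.01 and 0.08, and none of them matched under median scaling. Of 29 interferon and MHC genes 4 rose, 1 fell and 5 matched, beside 11.7%, 7.87% and 2.57% of all genes. The MHC class II chain H2-Eb1 had 8.87, 8.90 and 9.25 in diabetic mcIRBP, against 8.13, 7.76 and 7.58 in normal mock (adjusted p = 0.0034), and Irf7, a regulator of interferon genes, matched at 0.09. Endothelial genes fell in 6 of 16 (among them Pecam1 at -1.35), and none was called under either scaling. Of 37 matrix genes 9 fell and 4 rose, beside 7.87% and 11.7% of all genes. Under median scaling none of the 37 fell and 3 rose.

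Iron and selenium genes differed in both directions, with 7 of 23 lower and 4 higher, beside 7.87% and 11.7% of all genes. Sepp1, the plasma selenium carrier, had 10.19, 10.34 and 9.16 in diabetic mcIRBP, against 13.54, 13.65 and 13.54 in normal mock, a 12.8-fold fall (adjusted p = 0.00889). The selenium-dependent peroxidase Gpx1 fell 5.11-fold, while Gpx3, a secreted form, rose by 1.54 (log2). Among 25 genes of the unfolded protein response and stress 5 rose, 2 fell and 2 matched, beside 11.7%, 7.87% and 2.57% of all genes. Creld2, a secreted protein induced by stress of the endoplasmic reticulum, had 9.46, 9.28 and 9.62 in diabetic mcIRBP, against 5.90, 5.84 and 5.88 in normal mock, at least 5.06-fold higher (adjusted p = 1.24e-06). The stress regulator Atf4 matched at 0.06 and Herpud1 at -0.03. Of 14 ribosomal protein genes 5 rose and none fell, Rps21 by 2.22 and Rpl22 by 0.89 (log2), and 5 also rose under either scaling. The clock gene Rora was at least 2.23-fold lower, and it was not called under median scaling (adjusted p = 0.176).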
